A study of Mus musculus with 12 samples.

Results

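Ribosome footprints of S38D cells were set against those of S38A cells, both taken from nocodazole-treated cells labelled mitotic. Serine 38 of RPL12 is replaced by aspartate in S38D, whose negative charge resembles that of a phosphorylated serine, and by alanine in S38A, which cannot be phosphorylated. The samples were chosen by their labels: 2 S38D mitotic and 2 S38A mitotic libraries, 4 of the 12 in the series. The other 8 were 2 WT mitotic libraries and 2 asynchronous libraries each of S38D, S38A and WT cells.

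All groups shared 1 background, a mouse B cell lymphoma called 19PP, of which the reporter-negative subline 19DN was cultured. The tumour arose from bone marrow carrying Cγ1-Cre and Myc/P110*flSTOP, placed in a Rag2-/-γC-/- host. Cγ1-Cre acts in B cells that have been activated, so the line models a transformed B cell driven by Myc and P110*. Mitotic samples had received nocodazole, which blocks spindle assembly, at 100 ng/mL for 8 hr, followed by a wash and 10 min in fresh medium. Nocodazole and cell cycle state therefore cannot be told apart. The treatment text is the same for all 12 samples, and that asynchronous cells received no nocodazole is taken from their labels alone. The labels do not give the number of clones behind a genotype or whether replicates were grown separately. A difference between S38D and S38A is thus one between the cells so labelled, and the p-values rest on a library-to-library spread that could be technical.

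RPL12, also named uL11, sits at the base of the stalk of the large ribosomal subunit, the site that receives the GTPase translation factors. Protein synthesis as a whole is lowered while a cell divides, and some mRNAs stay better translated than others. Ribosome profiling sequences the mRNA stretches that ribosomes shield from nuclease, so the count for a gene reflects both how much mRNA there is and how many ribosomes it carries. The question addressed is whether footprints in dividing cells differ between a form of RPL12 that mimics phosphorylation at this serine and one that cannot receive it. Values below are footprint levels in CPM (counts as a share of a common library total, TMM-scaled), not translation efficiencies, since RNA-seq of these cells was not analysed here.

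The S38D mitotic libraries held 274071 and 298198 coding reads and the S38A mitotic libraries 440741 and 386376, within the 258354 to 505500 of the series. Of 22520 gene IDs, 6692 were tested. Alignments to more than 1 place made up 72.4 and 72.5% of all alignments in S38D and 70.4 and 65.8% in S38A mitotic libraries, and the 100 most abundant genes took 21.8% of coding reads in each S38D library against 20.0 and 19.7% in S38A. The part of these gaps in the results was not tested. Within each pair of replicates, log2 CPM over 4259 genes correlated at r = 0.952 in S38D and 0.960 in S38A mitotic cells, across genes, which are not independent replicates. Neither pair was the same set of counts deposited again. The chi-square statistic over its degrees of freedom was 1.05 in S38D and 1.25 in S38A (p = 0.00331 and 3.15e-46, chi-square test against counting error alone). Counting error alone gives about 1, and the S38D value lay near it. For S38D the statistic therefore cannot tell separate libraries from 1 library sequenced again. The S38A spread exceeded counting error alone, and whether that came from separate cultures was not tested. The tables give genes as Ensembl IDs, and the reference tables used here pair none of them with a symbol. Genes are therefore given by ID with no function, and neither RPL12 nor the markers that define a B cell could be checked.

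Between S38D and S38A mitotic cells, 864 genes differed, 12.9% of those tested. Of these, 411 were higher in S38D (6.14%) and 453 lower (6.77%), with Benjamini-Hochberg adjusted p under 0.05 in edgeR's quasi-likelihood test. The median log2 difference was 0.82 among the higher genes and -1.01 among the lower genes, against -0.03 over all genes tested. Differences of at least 2-fold were called for 114 higher and 229 lower genes, and of at least 4-fold for 10 higher and 32 lower genes. All but 1 of the 864 had S38D and S38A libraries that did not overlap. That carries little weight alone, because 54.8% of all tested genes had no overlap in these groups of 2, 25.7% with S38D higher and 29.2% with S38D lower.

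**Figure D1:**
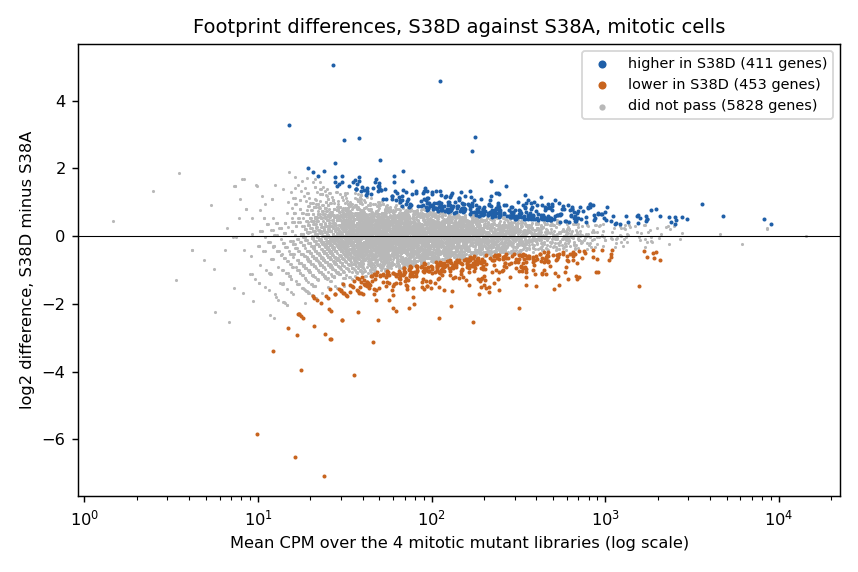
Mean footprint level over the 4 mitotic mutant libraries (CPM, log scale) against the log2 difference of S38D minus S38A, 1 point per tested gene. The 411 genes higher in S38D are blue, the 453 lower genes are orange and the 5828 that did not pass are grey; small differences pass only at high levels.

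Abundant genes were called more often. Tested genes were split into 5 equal classes by level over the 12 libraries. In the top class (at least 177.8 CPM), 31.1% were called, 211 higher and 205 lower in S38D. In the lowest class, between 10.7 and 33.4 CPM, 3.51% were called, 19 higher and 28 lower. The median standard error of the log2 difference was 0.18 in the top and 0.55 in the lowest class. For genes with few reads, a difference that did not pass may be absent or too small to detect at this depth.

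The balance between higher and lower calls depended on scaling. DESeq2 size factors in the same test turned it to 474 higher and 394 lower, and library totals gave 376 and 491. DESeq2's own test called 361 genes, 204 higher and 157 lower. Of its calls, 3 higher and 4 lower genes differed at least 4-fold, against 10 and 32 in edgeR. Leaving out any 1 of the 4 libraries left between 371 genes (without S38D replicate 2) and 487 (without S38A replicate 2), with 455 without S38A replicate 1 and 461 without S38D replicate 1. Among all calls, neither direction was the more frequent under every scaling. Among called changes of at least 2-fold, lower genes outnumbered higher ones in every alternative run, from 50 higher and 81 lower in DESeq2 to 105 and 245 with library totals. These counts were 95 and 128 without S38D replicate 2, 106 and 149 without S38A replicate 1, and 112 and 150 without S38D replicate 1. Libraries scaled to a common total cannot show whether total footprints per cell differed.

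The largest rise, by the naming rule given with the methods, was that of ENSMUSG00000028931.11. It had 57.2 and 49.1 CPM in S38D mitotic libraries, against 2.33 and 0 CPM in S38A mitotic libraries, that is 29 reads against 1. The ratio of S38D to S38A was 41.9, with a 95% counting interval of 6.95 to 1712, and the gene passed the test (adjusted p = 1.35e-06, edgeR). WT mitotic libraries, at 67.1 and 46.6 CPM, lay with S38D. The same held in asynchronous cells, where S38D libraries had 59.5 and 59.8 CPM, S38A libraries 2.61 and 6.47 CPM and WT libraries 74.3 and 53.1 CPM. This gene was thus low in the S38A cells in both states.

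ENSMUSG00000027562.12 also rose and was the better covered of the pair, with 117 reads in S38D and 7 in S38A mitotic cells. Its level was 244 and 186 CPM in S38D mitotic libraries, against 9.34 and 7.95 CPM in S38A mitotic libraries. The log2 difference was 4.57 ± 0.37 (SE, adjusted p = 4.94e-15, edgeR). The ratio of S38D to S38A was 24.2, with a 95% counting interval of 11.4 to 61.4, wider than this SE implies. WT mitotic libraries had 121 and 155 CPM, below both S38D libraries, though S38D and WT did not differ beyond the test's threshold (log2 difference 0.61 ± 0.22, SE, adjusted p = 0.179, edgeR). In asynchronous cells the difference of S38D from S38A was about as large, at 4.41 ± 0.50 (SE, adjusted p = 9.48e-10, edgeR), from 93 reads against 3.

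The largest falls were 2 genes without a single read in either S38D mitotic library. ENSMUSG00000006360.11 had 0 CPM in both, against 39.7 and 55.6 CPM in S38A mitotic libraries, 38 reads together. Taking 3 reads in the S38D group as the floor and the S38A reads as exact, it was at least 8.76-fold lower in S38D (adjusted p = 3.92e-05, edgeR). WT mitotic libraries disagreed with each other, at 16.8 and 0 CPM. Asynchronous S38D libraries had 1 read together, against 52.2 and 45.3 CPM in asynchronous S38A libraries, so this gene was near 0 in the S38D cells in both states.

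ENSMUSG00000020672.14 was the other gene at 0. It had no reads in both S38D mitotic libraries, against 28.0 and 37.1 CPM in S38A mitotic libraries, at least 5.996-fold lower by the same floor (adjusted p = 0.000202, edgeR). In asynchronous cells it was present in both mutants, with S38D libraries at 34.9 and 31.0 CPM and S38A libraries at 44.3 and 61.5 CPM, and that difference did not pass (log2 -0.65 ± 0.39, SE, adjusted p = 0.331, edgeR). The difference between states did not pass either (adjusted p = 0.0749, edgeR). WT mitotic libraries, at 3.35 and 13.0 CPM, lay between the mutants.

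**Figure D2:**
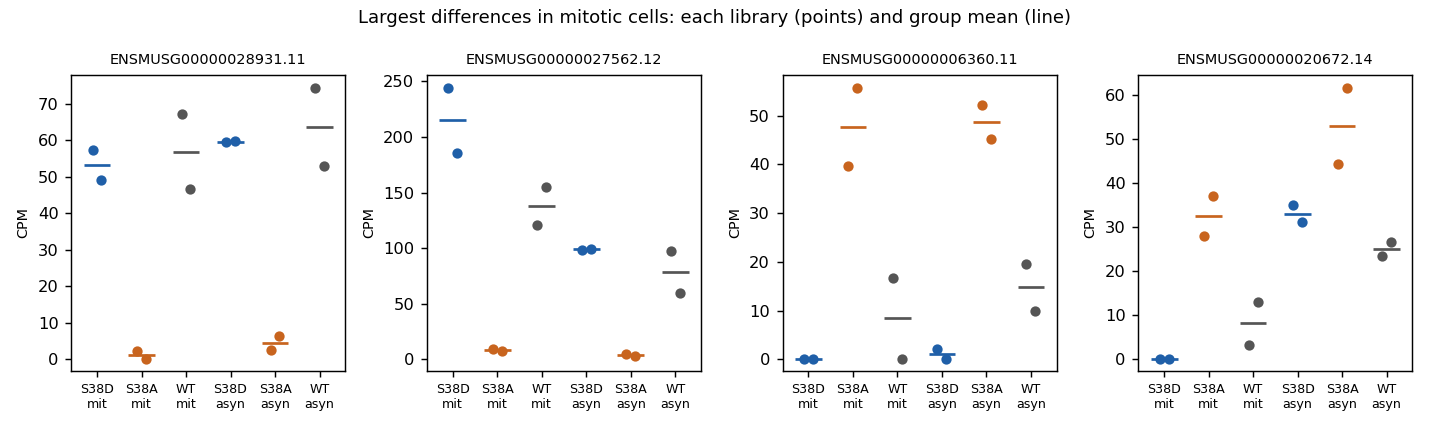
Footprint level in CPM of each library (points) and group mean (line) for the 2 largest rises and the 2 largest falls in mitotic S38D against mitotic S38A cells; mit is mitotic and asyn asynchronous. The first 2 genes reach at most 9.34 CPM in the 4 S38A libraries, the third at most 2.05 CPM in the 4 S38D libraries, and the last is at 0 in the mitotic S38D libraries alone among the S38D ones.

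Genes present in 1 mutant and absent from the other were rare. With at least 20 reads in 1 mitotic group and 0 in the other as the limit, the 2 genes above were found in S38A and not in S38D. In the other direction 1 gene, outside the tests for low counts, had 22 reads in S38D and 0 in S38A mitotic cells. It was at least 10.6-fold higher by the same floor, here set on S38A.

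WT mitotic libraries were not part of the contrast that gave the 864 genes and show where WT lay, as a description. They did enter the filter, the scaling and the estimate of spread behind the calls. The comparisons of S38D and S38A with WT share the WT libraries. For the 411 genes higher in S38D than in S38A, the median log2 difference from WT was 0.26 in S38D and -0.57 in S38A. For the 453 lower genes it was -0.14 in S38D and 0.84 in S38A. Among these 453, S38D differed from WT in 6 higher and 21 lower genes, and S38A in 292 higher and 3 lower. Among the 411, S38D differed from WT in 28 higher and 7 lower genes and S38A in 2 higher and 177 lower. Over all tested genes, 1.82% differed between S38D and WT and 13.2% between S38A and WT: 0.702% were called higher and 1.12% lower in S38D against WT, and 7.79% and 5.44% in S38A against WT. In both directions the S38D median lay nearer to WT than the S38A median did.

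A set of genes that the comparison of mutants did not choose is given by the WT cells themselves. In WT, 611 genes were higher in mitotic than in asynchronous libraries (9.13%) and 620 lower (9.26%), with none of the mutant libraries entering the contrast. Of the 611 genes that were higher in WT under nocodazole, 199 were higher in mitotic S38D than in mitotic S38A cells, 7 were lower and 405 did not pass. Their median log2 difference was 0.41, against -0.03 over all genes tested, of which 6.14% were called higher and 6.77% lower. Of the 620 genes lower in mitotic WT cells, 8 were higher in S38D, 197 were lower and 415 did not pass, with a median of -0.47. With any 1 of the 4 mutant libraries left out, 105 to 122 of the first set were higher and 82 to 127 of the second lower, both lowest without S38D mitotic replicate 2. Of the first set 17.3% had a value below 0, and of the second 82.4%, against 52.4% of all genes tested. Most genes of each set did not pass, and the calls that did pass lay mainly in the direction of the WT change.

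The summed levels showed the same separation by library. The 611 genes took 24.7 and 24.9% of tested reads in S38D mitotic libraries, against 19.4 and 19.0% in S38A mitotic libraries. The 620 genes took 12.9 and 12.8% in S38D mitotic libraries, against 17.4 and 17.5% in S38A mitotic libraries. In neither set did the groups overlap, and S38D was on the side of the mitotic WT libraries, which took 23.2 and 23.9% and then 13.1 and 13.1% for these 2 sets but were used to choose them.

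Both WT sets were more abundant than the average gene, with median levels of 155 and 164 CPM over the 12 libraries against 70.6 CPM for all genes tested, and abundant genes are called more often. The medians changed little with level. Over the 5 classes of abundance they ranged from 0.36 to 0.43 for the genes higher in mitotic WT cells and from -0.33 to -0.50 for the lower ones, while over all tested genes they ranged from -0.01 to -0.06.

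**Figure D3:**
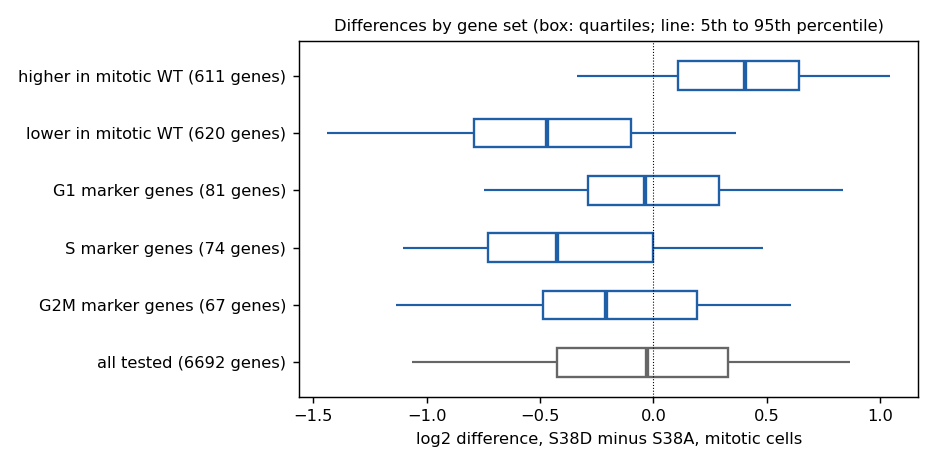
The log2 difference of S38D minus S38A in mitotic cells (horizontal axis) for each gene set and for all tested genes; boxes are quartiles, thick lines medians and thin lines run from the 5th to the 95th percentile. The genes higher in mitotic WT cells have a median of 0.41 and the lower ones of -0.47, against -0.03 for all genes.

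The WT sets accounted for fewer than all calls. Of the 411 genes higher in S38D, 48.4% were among those higher in mitotic WT cells, 1.95% among the lower ones, and 204 were not called in WT. Of the 453 lower genes, 43.5% were among those lower in mitotic WT cells, 1.55% among the higher ones, and 249 were not called in WT. These 204 and 249 genes were 3.74 and 4.56% of the 5461 genes not called in WT. By contrast, 32.6% of the genes higher in mitotic WT were called higher, and 31.8% of the lower ones lower. The called genes outside the WT sets had medians of 0.91 and -1.03 in mitotic cells. Passing the threshold requires a difference of some size, so these medians do not describe all genes outside the sets.

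The same sets were also compared in the separate libraries labelled asynchronous. There, 112 of the 611 genes were higher and 10 lower in S38D than in S38A, with a median log2 difference of 0.36. Among the 620 genes, S38D was higher in 8 and lower in 119 (median -0.25). The background there was 3.71% higher and 5.01% lower, with a median of -0.00 over all genes tested. From asynchronous to mitotic libraries, the 611 genes changed by a median of 0.71 in S38D and 0.70 in S38A cells. The 620 genes changed by a median of -0.78 in S38D and -0.59 in S38A cells. The median of the difference between states was 0.05 for the first set and -0.21 for the second, against -0.05 over all genes tested. For the genes that go up in WT, the gap between the mutants in mitotic cells was therefore about the size of the gap in asynchronous cells.

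Cell cycle genes were examined through published marker pairs shipped with the scran package, which list Ensembl IDs. S phase genes include those for copying DNA, and G2M genes those for entering and passing through mitosis. Of 74 tested S phase genes, 18 were lower in S38D than in S38A mitotic cells, 2 were higher and 54 did not pass, with a median log2 difference of -0.42. Of 67 G2M genes, 11 were lower and 3 higher, with a median of -0.21. Of 81 G1 genes, 5 were lower and 6 higher, with a median of -0.04. Over all tested genes 6.77% were lower and 6.14% higher, with a median of -0.03. Median levels over the 12 libraries were 123 (S phase), 132 (G2M) and 108 CPM (G1), against 70.6 CPM for all tested genes. Abundant genes are called more often, so these shares are not on equal terms. With any 1 of the 4 libraries left out, 3 to 9 S phase genes were lower, fewest without S38D mitotic replicate 2, and DESeq2 called 4 lower. The G2M genes then had 6 to 10 lower, fewest without S38D mitotic replicate 1, and DESeq2 called 7. The G1 genes had 1 to 3 higher and 1 to 3 lower, and DESeq2 called 1 and 2.

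In summed level, the S phase genes took 1.299 and 1.304% of tested reads in S38D mitotic libraries, against 1.53 and 1.56% in S38A mitotic libraries. The G2M genes took 1.05 and 1.13% in S38D, against 1.21 and 1.26% in S38A. Neither pair of groups overlapped. The G1 genes took 1.39 and 1.42% in S38D, against 1.40 and 1.37% in S38A, and there the groups overlapped. Asynchronous S38D cells were lower than S38A in 8 of the 74 S phase genes and higher in 1 (median -0.16). Of the 67 G2M genes, 13 were lower and 3 higher there (median -0.17), against 5.01% lower and 3.71% higher of all genes tested. The G2M genes were not raised in the libraries labelled mitotic. In WT, 4 were higher and 19 lower in mitotic than in asynchronous libraries, with a median log2 change of -0.33. Of all genes tested, 9.13% were higher and 9.26% lower in that comparison. Their share of tested reads in mitotic against asynchronous libraries was 1.05 and 1.13% against 1.40 and 1.41% in S38D, 1.21 and 1.26% against 1.58 and 1.54% in S38A, and 1.04 and 1.05% against 1.28 and 1.26% in WT. A higher footprint level of these markers thus did not accompany the mitotic label. Footprints reflect both the mRNA and the ribosomes it carries, so these levels cannot test the label itself. The part of these markers in the difference between mutants was not tested. A different share of cells in each phase and a different footprint level per cell cannot be told apart in these bulk samples, here and for the WT sets.

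The contrast of S38D with S38A was next set beside the same contrast in asynchronous cells. That contrast is taken between other libraries, though both share the filter and the estimate of spread of 1 model. There 583 genes differed (8.71%), 248 higher (3.71%) and 335 lower (5.01%) in S38D. DESeq2 called 152, and leaving out 1 library left between 158 (without S38A asynchronous replicate 1) and 477 (without S38D asynchronous replicate 1). Of the 411 genes higher in mitotic S38D cells, 367 (89.3%) had the same direction in asynchronous cells, with a median log2 difference of 0.42, and 100 were called there too. These 100 were 24.3% of the higher calls in mitotic and 40.3% of those in asynchronous cells. Of the 453 lower genes, 399 (88.1%) had the same direction, with a median of -0.43, and the 154 called in both were 34.0% of the mitotic and 46.0% of the asynchronous calls. Over all tested genes, 49.97% were higher and 50.03% lower in asynchronous S38D cells. Only 2 genes were called in opposite directions in the 2 states.

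Larger mitotic differences recurred more. Of the 42 genes that differed at least 4-fold in mitotic cells, 95.2% had the same direction in asynchronous cells and 20 were called there. Of the 40 called with a log2 difference under 0.5, 77.5% had the same direction and 10 were called. These genes were chosen on their mitotic values, so the sizes of the mitotic and asynchronous differences are not on equal terms. For genes outside the WT sets, 87.3% of the higher and 87.1% of the lower calls kept their direction, so the recurrence was seen there as well.

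**Figure D4:**
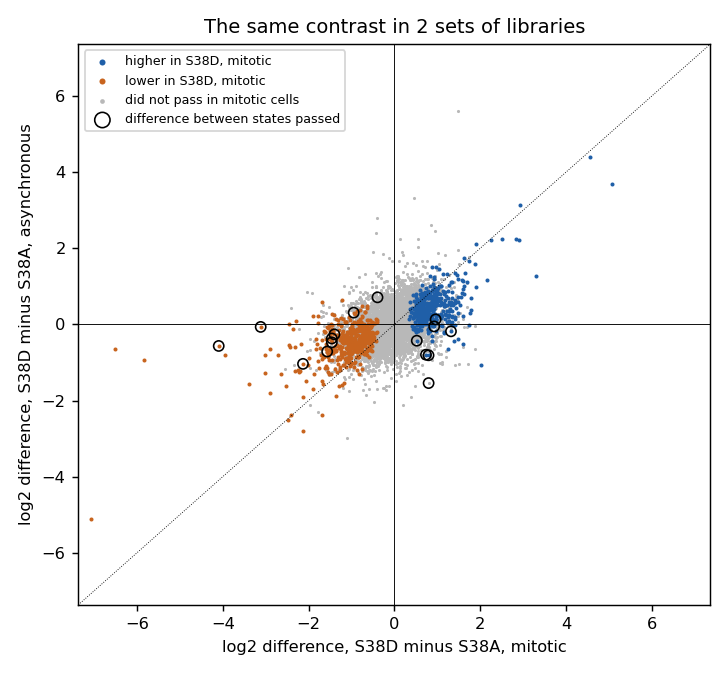
The log2 difference of S38D minus S38A for each tested gene in mitotic (horizontal) and asynchronous cells (vertical), with the dotted line marking equal values. Genes called in mitotic cells are blue where higher and orange where lower, and 89.3% and 88.1% of them lie on the same side of 0 in asynchronous cells; open circles mark the 16 genes whose difference changed between states.

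The difference between the mutants itself differed between states for 16 genes (0.239% of those tested), 7 with a higher (0.105%) and 9 with a lower value (0.134%) in mitotic cells (adjusted p under 0.05 for the interaction in edgeR). DESeq2 called 3 of them, and leaving out 1 library gave between 4 genes (without S38A mitotic replicate 1) and 35 (without S38D asynchronous replicate 2). At an unadjusted p under 0.05, 703 genes passed. Of the 16, 14 were also called between S38D and S38A in mitotic cells and 8 in asynchronous cells, against 12.9% and 8.71% of all genes tested. The interaction is made from these 2 differences, so such overlap is in part built in and carries no weight. Their levels over the 8 mutant libraries averaged between 45.6 and 3124 CPM, and their interaction values were between 0.83 and 3.53 in size on the log2 scale.

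The most negative interaction belonged to ENSMUSG00000045679.14. It had 3.82 and 3.51 CPM in S38D mitotic libraries, 1 read each, against 72.4 and 63.6 CPM in S38A mitotic libraries. In asynchronous cells it had 47.2 and 42.1 CPM in S38D, against 67.8 and 64.7 CPM in S38A libraries. The ratio of S38D to S38A in mitotic cells was 0.0526, with a 95% counting interval of 0.00621 to 0.199, and the interaction was -3.53 ± 0.77 (SE, adjusted p = 0.0139, edgeR). The groups did not overlap in either state, and the gap was wide only in mitotic cells. DESeq2 did not call the interaction (adjusted p = 0.717), and without S38A mitotic replicate 1, S38D mitotic replicate 1 or S38D mitotic replicate 2 its adjusted p in edgeR was 0.0951, 0.15 and 0.271.

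ENSMUSG00000037815.6 showed the same form. It had 3.82 and 14.0 CPM in S38D mitotic libraries, against 74.7 and 90.1 CPM in S38A mitotic libraries. Asynchronous S38D libraries had 71.8 and 68.7 CPM, against 75.6 and 71.2 CPM in asynchronous S38A libraries, and these groups overlapped. WT fell too, to 20.1 and 51.8 CPM in mitotic libraries, against 102 and 66.3 CPM in asynchronous ones (log2 change -1.12 ± 0.36, SE, adjusted p = 0.0215, edgeR). The interaction was -3.05 ± 0.61 (SE, adjusted p = 0.00569, edgeR), and it did not pass without S38D mitotic replicate 1 (adjusted p = 0.16) or in DESeq2 (adjusted p = 0.381).

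Of the 2 positive interactions named, ENSMUSG00000074403.2 had the steadier replicates in the mutants. It had 294 and 305 CPM in S38D mitotic libraries, against 175 and 169.5 CPM in S38A mitotic libraries. In asynchronous cells the order was the other way, with S38D libraries at 94.4 and 109 CPM and S38A libraries at 167 and 191 CPM. Both differences passed, at 0.80 ± 0.21 in mitotic and -0.81 ± 0.24 in asynchronous cells (SE, adjusted p = 0.00657 and 0.0205, edgeR). WT rose too, to 231 and 267 CPM in mitotic libraries (log2 change 1.21 ± 0.25, SE, adjusted p = 0.000192, edgeR). The asynchronous WT libraries disagreed with each other, at 168 and 56.4 CPM. The interaction was 1.61 ± 0.32 (SE, adjusted p = 0.00569, edgeR), and it did not pass without S38A mitotic replicate 1 (adjusted p = 0.0537) or in DESeq2 (adjusted p = 0.29).

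ENSMUSG00000048234.13 had the largest positive interaction, 2.34 ± 0.47 (SE, adjusted p = 0.00585, edgeR). It rested on the asynchronous side, where S38D libraries had 57.4 and 46.5 CPM, against 169.6 and 133 CPM in S38A libraries. In mitotic cells S38D libraries had 38.2 and 98.2 CPM, against 35.0 and 45.0 CPM in S38A libraries, and these groups overlapped (log2 difference 0.80 ± 0.38, SE, adjusted p = 0.168, edgeR). Without S38D mitotic replicate 2, the higher of its pair, the interaction was 1.49 and did not pass (adjusted p = 0.585, edgeR). It did not pass without S38A mitotic replicate 1 (adjusted p = 0.0951, edgeR) or in DESeq2 (adjusted p = 0.29).

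**Figure D5:**
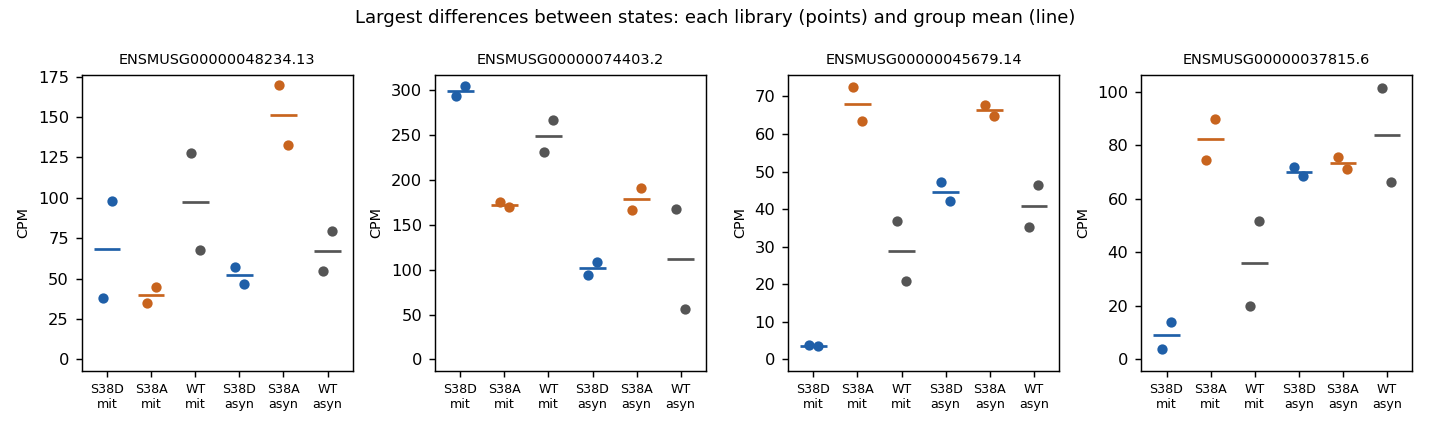
Footprint level in CPM of each library (points) and group mean (line) for the 2 most positive and the 2 most negative differences between states; mit is mitotic and asyn asynchronous. In the last 2 genes the mitotic S38D libraries lie between 3.51 and 14.0 CPM while every S38A library lies between 63.6 and 90.1 CPM.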

How the data were processed

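The files deposited by the authors hold raw counts, 1 whole number for each gene in each library. Build mm10, the aligners STAR (2.5.3a) and Bowtie2 (2.3.2), the counter HTSeq (0.9.1), bcl2fastq (2.16.0.10) and DESeq2 (1.18.1) are listed, per the submitters' processing notes, without the steps they served; that coding sequence was counted is stated only in the file naming. Strand use and collapsing of identical reads are both not given in the sources used here. Antisense, overlapping and near-identical genes are therefore uncertain. Intervals cover counting error only, and floors only that of the group without reads. Reads outside counted features (25.6 to 28.3% of unique reads in the 4 libraries) and the other summary rows were left out.

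The test was edgeR's (4.0.16, under R 4.3.3) quasi-likelihood F test (TMM, filterByExpr with a minimum count of 10), run with all 12 libraries in 1 model of 6 groups (common biological coefficient of variation 0.0868) and Benjamini-Hochberg adjustment over 6692 of the 11680 genes with a read. CPM are TMM-scaled. A standard error is the log2 difference over the root of its F value. It can be too small for a gene with few reads in 1 group. Lists by symbol could not be applied to the IDs, and no sequence could be matched. The naming rule, reduced to IDs, took the 2 largest changes in each direction with adjusted p under 0.05, a mean of at least 10 CPM and, for mitotic cells, no overlap between groups. Marker pairs came with scran 1.30.0; a phase gene was first on balance in its own phase and second in both others. The comparison, lists and rules were chosen with earlier results of these data known. Alternatives were DESeq2 1.42.0, 2 scalings, 2 filters, fits on fewer libraries, the replicate block and leaving out each library. Replicate numbers were not used to pair libraries: over all pairs of groups, deviations of same-numbered libraries correlated between -0.23 and 0.09 across 4259 genes, at 0.01 for S38D and S38A mitotic cells.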

Additional observations from a re-analysis of the deposited data

Results flagged for a closer look

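The difference between S38D and S38A differed between mitotic and asynchronous cells, by a test of the difference itself, in 16 genes. On the log2 scale it was 2.34 for ENSMUSG00000048234.13, 1.61 for ENSMUSG00000074403.2, -3.53 for ENSMUSG00000045679.14 and -3.05 for ENSMUSG00000037815.6 (interaction in edgeR, mitotic minus asynchronous). None of these genes passed in DESeq2 (adjusted p = 0.29, 0.29, 0.717 and 0.381 in the same order).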

How the results depend on the processing

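The 4 genes named for mitotic cells kept their direction and passed under every alternative that gave an adjusted p (9 to 12 each), with log2 differences of 4.31 to 7.22 and 4.39 to 4.78 for the 2 rises. Of these 4, only ENSMUSG00000027562.12 had an adjusted p in DESeq2, so DESeq2 did not call the others. ENSMUSG00000020672.14 was not tested in either fit on mitotic libraries alone. DESeq2 called 361 genes between S38D and S38A in mitotic and 152 in asynchronous cells, 3 for the difference between states and 608 between states in WT. Without a filter the difference between states was called for 38 genes. Leaving out 1 library gave 371 to 487, 158 to 477, 4 to 35 and 647 to 959 genes for these 4 comparisons, the lowest without S38D mitotic replicate 2, S38A asynchronous replicate 1, S38A mitotic replicate 1 and WT asynchronous replicate 2. With the replicate block the counts were 821, 530, 17 and 1196, and the block moved no count by over 1.5 times. Deviations of same-numbered libraries correlated at -0.15 between S38D and S38A and at -0.23 between S38D and WT, all asynchronous; exchanging the S38D numbers, an alternative chosen after seeing the data, gave 643 genes with a crossed replicate block. With only the 4 mitotic mutant libraries in the fit 1100 genes were called, 570 higher and 530 lower. Of the 611 genes raised in WT under nocodazole, 105 to 257 were higher in S38D and 2 to 10 lower over 12 alternatives, and of the 620 lower ones 82 to 219 were lower and 4 to 12 higher, the lowest of 105 and 82 being without S38D mitotic replicate 2; medians stayed between 0.38 and 0.46 and between -0.50 and -0.42. Groups of 2 allow no exact permutation p under 0.333 for a single value.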
